A study of Mus musculus with 2 samples.

Results

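The rod phototransduction cascade was followed as 9 of the 32285 genes counted in mouse retina, chosen by symbol as the subunits that act downstream of the visual pigment and not by their measured values. They were Sag (arrestin), Gnat1, Gnb1 and Gngt1 (transducin), Pde6a, Pde6b and Pde6g (phosphodiesterase 6) and Cnga1 and Cngb1 (the cyclic nucleotide-gated channel). All 9 passed the minimum of 50 unique molecular identifiers (UMIs) in rods over both libraries. The study profiled dissociated retinas of untreated mice at 13 weeks of age by 10x Genomics 3′ droplet sequencing. The wild-type group (C57BLKS-Leprwt/wt, also given as m/m) and the db/db group (C57BLKS-Leprdb/db), a leptin receptor mutant used as a model of type 2 diabetes, shared the C57BLKS background. Each genotype had 1 library made from 2 mice, with retinas of both eyes. The labels gave no map from cells to mice, so differences between mice could not be seen and no test between genotypes was possible.

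In a rod outer segment, light-activated visual pigment switches on the G protein transducin, whose alpha subunit relieves the inhibition of phosphodiesterase 6. The enzyme breaks down cyclic GMP, the cation channel closes and the cell hyperpolarizes. Arrestin ends the signal by binding the phosphorylated pigment, and cones use a parallel cascade built largely from their own versions of these proteins.

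Promoter sequence was matched in the RefSeq table (GRCm38.p6) for 6 of the 9 genes, namely Sag, Gnb1, Gngt1, Pde6b, Cnga1 and Cngb1. Gnat1, Pde6a and Pde6g had no match. The windows of 4 genes are shown because they differ in the short motifs they hold. Each gives the 250 bases before the RefSeq start site, read 5′ to 3′ on the gene's strand. Capitals mark matches, on either strand, to 3 motifs. TAATCC is a core bound by the photoreceptor homeodomain factor CRX. TGCTGA is part of the element bound by the rod leucine zipper factor NRL. GGGCGG is the GC box, which general factors such as SP1 bind.
Sag promoter, chr1:87803430-87803679, plus strand: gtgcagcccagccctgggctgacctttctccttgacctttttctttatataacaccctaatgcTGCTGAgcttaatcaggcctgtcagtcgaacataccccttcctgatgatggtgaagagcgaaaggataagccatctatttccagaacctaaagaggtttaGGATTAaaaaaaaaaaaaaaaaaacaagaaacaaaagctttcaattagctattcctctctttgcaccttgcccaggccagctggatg
Cngb1 promoter, chr8:95306586-95306835, minus strand: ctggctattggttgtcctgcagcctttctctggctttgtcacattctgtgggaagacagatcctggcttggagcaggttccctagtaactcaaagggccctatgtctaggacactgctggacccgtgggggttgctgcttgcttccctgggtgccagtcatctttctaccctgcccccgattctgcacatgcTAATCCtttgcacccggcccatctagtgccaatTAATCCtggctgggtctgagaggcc
Pde6b promoter, chr5:108388123-108388372, plus strand: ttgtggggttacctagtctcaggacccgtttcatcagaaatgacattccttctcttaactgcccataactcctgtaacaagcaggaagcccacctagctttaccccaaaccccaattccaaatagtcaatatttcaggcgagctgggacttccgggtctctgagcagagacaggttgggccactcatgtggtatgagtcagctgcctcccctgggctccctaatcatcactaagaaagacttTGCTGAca
Gnb1 promoter, chr4:155491111-155491360, plus strand: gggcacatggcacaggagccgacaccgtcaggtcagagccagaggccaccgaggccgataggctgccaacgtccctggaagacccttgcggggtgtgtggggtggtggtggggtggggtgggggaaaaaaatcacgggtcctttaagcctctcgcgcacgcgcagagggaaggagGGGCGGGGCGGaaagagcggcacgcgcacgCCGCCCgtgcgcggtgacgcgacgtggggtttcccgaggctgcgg
TAATCC was present in 4 of the 6 windows, those of Sag, Gngt1, Cnga1 and Cngb1, against 6.25% of 32851 promoter windows of the same length. Cngb1 held 2 matches, starting 58 and 25 bases before the start site. TGCTGA was present in 2 of the 6, Sag and Pde6b, against 16.1% of all windows. GGGCGG was found in the Gnb1 window alone, at 3 positions of which 2 overlap by a base, against 32.7% of all windows. Gnb1 encodes a beta subunit that G proteins of many cell types use. These matches describe the letters in the windows and do not show that a factor binds there.

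The genes lie on 8 chromosomes of GRCm38 (GENCODE M21 annotation), and all are protein-coding. Sag (ENSMUSG00000056055) spans chromosome 1 from 87803680 to 87845158 and has 16 exons in its longest coding transcript. Gnat1 (ENSMUSG00000034837) spans chromosome 9 from 107674474 to 107679712, with 9 exons. Gnb1 (ENSMUSG00000029064) spans chromosome 4 from 155491361 to 155559269, with 12 exons, and Gngt1 (ENSMUSG00000029663) chromosome 6 from 3993792 to 3997436, with 3 exons. The subunits of the enzyme are encoded apart from each other. Pde6a (ENSMUSG00000024575) spans chromosome 18 from 61220315 to 61289924, Pde6b (ENSMUSG00000029491) chromosome 5 from 108388391 to 108432397, and Pde6g (ENSMUSG00000025386) chromosome 11 from 120447605 to 120453500. They have 22, 22 and 4 exons. Cnga1 (ENSMUSG00000067220) spans chromosome 5 from 72603696 to 72644275 with 9 exons, and Cngb1 (ENSMUSG00000031789) chromosome 8 from 95239045 to 95306585 with 33. No other gene of the count matrix overlapped a member's span.

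The wild-type library held 35642274 UMIs in 10308 barcodes and the db/db library 33742189 UMIs in 11083. Both numbers of barcodes exceed the number of cells the labels say were targeted, and 26 barcode sequences occurred in both libraries. After filtering, 10230 and 10963 cells remained, with medians of 2314 and 2051 UMIs. Cells were assigned to classes by the summed UMIs of marker genes, and the 9 cascade genes were kept out of those markers. Rod-gated cells carried at least 200 UMIs of 12 rod markers (Nrl, Nr2e3, Reep6, Rom1 and others) per 10000 UMIs and little of any other class's markers. They numbered 7919 in the wild-type library (77.4% of kept cells) and 9273 in the db/db library (84.6%). In all, 11.2% and 7.15% of kept cells passed no gate.

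The 9 genes marked almost every rod-gated cell. With each cell thinned to 1000 UMIs, which left 6681 wild-type and 8273 db/db rods and dropped 1238 and 1000 shallower ones, no rod lacked all of them. The summed cascade genes gave a median of 35 UMIs per thinned wild-type rod, with a range of 8 to 93. In db/db rods the median was 34 and the range 9 to 84. As the plot of summed UMIs per rod shows, both libraries had a single broad peak and almost the same spread.

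**Figure D1:**
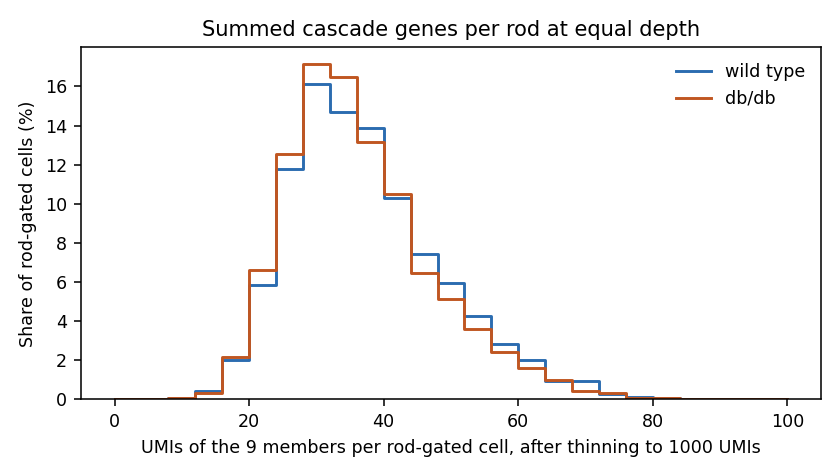
Distribution of the summed UMIs of the 9 cascade genes per rod-gated cell after thinning to 1000 UMIs (x axis, UMIs; y axis, percent of rod-gated cells), with 1 line per library. The 2 outlines overlap over the whole range, with medians of 35 in wild-type and 34 in db/db rods.

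Arrestin was found in the largest share of rods. After thinning, 99.7% of wild-type rods (exact Clopper-Pearson 95% interval 99.6 to 99.8%) and 99.8% of db/db rods (99.7 to 99.9%) had a Sag UMI. The transducin genes and Pde6g, the inhibitory gamma subunit, were detected in 97.7 to 98.6% of rods of either library. The catalytic subunits Pde6a and Pde6b were detected in 78.7% and 84.5% of wild-type rods, and in 80.2% and 85.7% of db/db rods. The channel genes Cnga1 and Cngb1 were detected in 89.1% and 67.0% of wild-type rods and in 90.2% and 66.7% of db/db rods. Without thinning, at median depths of 2304 and 2003 UMIs over all rods, the share for Cngb1 was 84.5% and 84.6%. Detection outside rods gives the background. Muller glia had Sag in 58.7% of thinned wild-type and 63.8% of thinned db/db cells, bipolar cells in 58.7% and 50.2%, microglia or macrophages in 48.6% and 59.5%, and wild-type amacrine cells in 80%. After thinning, the class with the lowest Sag share was erythroid. Over all measured genes, the median level in erythroid cells was 11.5% of that in rods for wild type and 10.1% for db/db. The low share was thus not particular to Sag. The UMIs kept in thinning include the hemoglobin genes of the erythroid gate, whose part in the low share was not tested. Erythroid-gated cells, red blood cell precursors or red cells that should lack the cascade, had Sag in 8 of 21 thinned wild-type cells (38.1%, 18.1 to 61.6%) and in 11 of 37 thinned db/db cells (29.7%, 15.9 to 47.0%), from median depths of 5078 and 10124 UMIs before thinning. Without thinning, Sag was seen in 95.7% of wild-type and 79.5% of db/db erythroid cells, beside 90.3% and 83.4% of bipolar cells. The order of the classes thus depended on thinning. All intervals in the text are at 95% and cover counting error only.

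In rods the cascade was at nearly the same level in both genotypes. Levels are UMIs per 1000000 nuclear-encoded UMIs of the rod-gated cells, abbreviated CPM, and a difference was called where the log2 ratio of db/db to wild type was at least 0.25 in size (a fold of 1.19). One gene of the 9, Pde6g, was called, and it was lower, against a background of 9.43% of the 12053 measured genes called lower and 11.2% called higher (20.6% in either direction). Among genes with at least 500 UMIs, 9.76% were called in either direction. The median log2 ratio of the 9 genes was -0.01, beside 0.02 over all measured genes.

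Arrestin, which quenches the activated pigment, was at 8365 CPM in wild-type and 8565 CPM in db/db rods. The log2 ratio for Sag was 0.03 (0.03 to 0.04).

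The transducin subunits did not share a ratio. Gnat1, the alpha subunit that carries the signal to the enzyme, was at 5426 CPM in wild-type and 4943 CPM in db/db rods, a log2 ratio of -0.13 (-0.15 to -0.12). Gngt1, the rod gamma subunit that anchors the complex to the membrane, was at 6322 and 5645 CPM, a log2 ratio of -0.16 (-0.17 to -0.15). Gnb1, which pairs with it, was at 5469 and 5386 CPM, with a log2 ratio of -0.02 (-0.03 to -0.01). The db/db level was thus below the wild-type level for all 3, at 0.985 times that level for Gnb1, 0.911 for Gnat1 and 0.893 for Gngt1, and none reached the size set for a call. The sign for Gnb1 was not stable, since 5 of 10 alternatives put it above 0.

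Within phosphodiesterase 6 the inhibitory subunit went the other way from the catalytic ones. Pde6g, which holds the enzyme inactive in the dark, was at 5926 CPM in wild-type and 4923 CPM in db/db rods, a ratio of 0.831 and a log2 ratio of -0.27 (-0.28 to -0.26). Pde6a was at 1712 and 1797 CPM, a log2 ratio of 0.07 (0.05 to 0.09). Pde6b, the other catalytic subunit, was at 2077 and 2147 CPM, a log2 ratio of 0.05 (0.03 to 0.07). The gap between the inhibitory and the catalytic subunits kept its direction in all 10 alternative treatments of the data that give these ratios, although Pde6g was no longer called in 4 of them. It was at -0.20 with cells thinned to 1000 UMIs, at -0.22 without the deepest 8% of cells, at -0.16 with cells weighted equally and at -0.247 with the 5 mitochondrial bins weighted equally.

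The channel subunits were level between the libraries. Cnga1, the subunit that opens on cyclic GMP, was at 2492 CPM in wild-type and 2544 CPM in db/db rods, a log2 ratio of 0.03 (0.01 to 0.05). Cngb1, the modulatory subunit, was at 1194 and 1189 CPM, and the interval of its log2 ratio, -0.03 to 0.02, included 0.

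**Figure D2:**
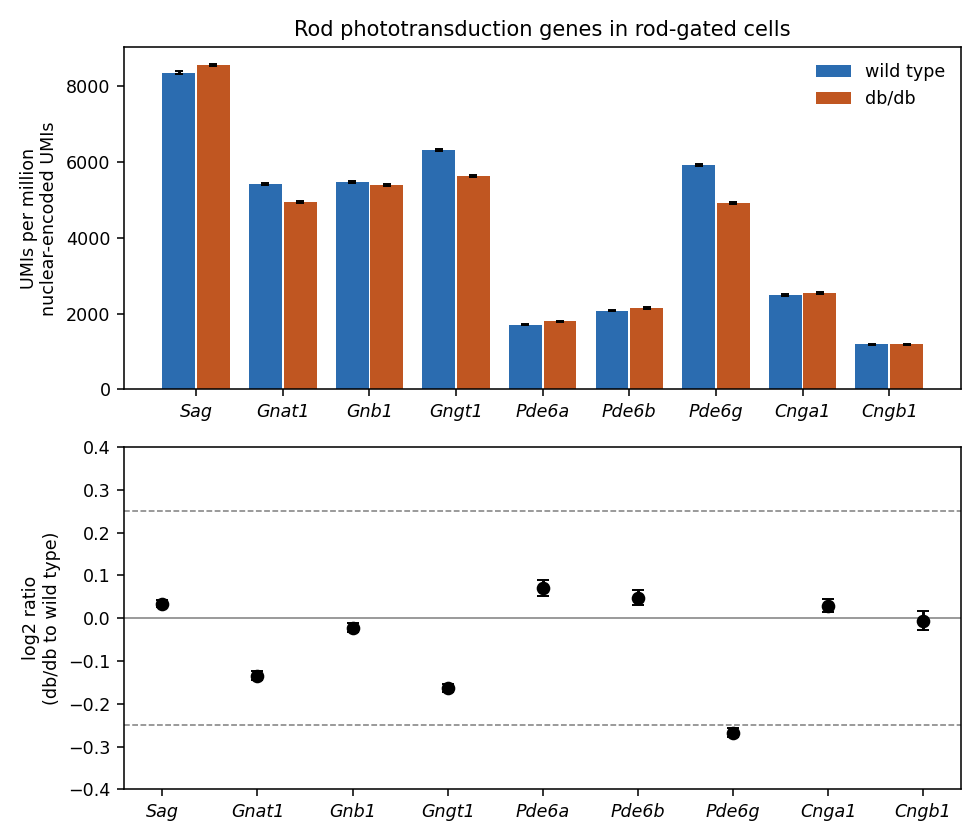
Levels of the 9 cascade genes in rod-gated cells of the wild-type and db/db libraries (top, UMIs per 1000000 nuclear-encoded UMIs, bars from 0) and their log2 ratio (bottom, db/db to wild type, dashed lines at 0.25 and -0.25); error bars are 95% counting intervals, with 1 library per genotype. Pde6g lies below the lower dashed line at -0.27, and the other 8 lie between -0.16 and 0.07.

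Pde6g and Gngt1 had short transcripts, and the genes with the shortest transcripts had a median below 0 in db/db rods. The longest coding transcript has 900 bases for Pde6g, 1183 for Gngt1 and 2328 for Gnat1. When all genes were ranked by that length and split into 5 bins of equal size, the shortest bin (276 to 1802 bases) had a median log2 ratio of -0.04, and the other bins had medians of 0.02 to 0.04. Among the 241 genes of the shortest bin with more than 10000 UMIs in rods, the median was -0.14. Pde6g and Gngt1 belong to this bin. Gnat1 belongs to the next one (1803 to 2727 bases), whose median was 0.02 over all its genes and over those with more than 10000 UMIs. Sag, at 1719 bases, belongs to the shortest bin and was not lower. The split by length was added after the ratios were seen, and its part in the ratios of Pde6g, Gngt1 and Gnat1 was not tested.

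Genes for recovery of the light response and chaperones of the cascade had medians near 0 in rods, while the medians of other G protein subunits and of cone counterparts were below 0. The share over all measured genes was 9.43% called lower and 11.2% called higher. Of 12 genes for recovery and calcium feedback, none was called, and the median log2 ratio was -0.00. Rcvrn, Pdc and Guca1b of this list were also rod markers of the gate. The lowest was Rcvrn (recoverin, the calcium sensor that restrains the pigment kinase) at -0.24, and the highest were Guca1a (a guanylate cyclase activator) and Gnb5 (partner of the transducin deactivator Rgs9) at 0.10 each. None of the 8 chaperones and carriers of transducin and phosphodiesterase was called, with a median of 0.03 and values from -0.02 (Ric8a) to 0.16 (Pdcl). Of 8 other G protein subunits 7 were measured, with a median of -0.16 and 2 called lower, Gng13 at -0.36 and Gnai2 at -0.29. All 8 cone counterparts were called lower, with a median of -0.63, from Pde6h at -0.86 and Arr3 at -0.78 to Gnb3 at -0.36. The cone counterparts other than Gnb3 were also cone markers of the gate, and Gng13 was a bipolar marker. The rod gate therefore limited their levels in these cells.

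Markers of some other classes in rod-gated cells differed between the 2 libraries, and those of others were nearly level. All 11 cone markers, a list that holds the cone counterparts other than Gnb3, were lower in the db/db rods. The summed level of these markers was 789 CPM in wild-type and 489 CPM in db/db rods. The 11 Muller glia markers summed to 349 and 272 CPM, and the 12 measured of 13 bipolar markers lay below 0 in 11 cases, with sums of 186 and 176 CPM for the whole list. Amacrine markers summed to 40.7 and 40.2 CPM, and horizontal cell markers to 47.2 and 41.8 CPM. Ganglion cell markers were at 30.1 and 34.0 CPM, and microglia or macrophage markers at 16.4 and 13.8 CPM. Erythroid markers were at 15.6 and 48.4 CPM, and the 12 rod markers at 37582 and 37094 CPM. The part of these markers in the member ratios was not tested. With the stricter gate, with 2 times the rod-marker minimum and 0.5 times the allowance for other markers, Pde6g was at -0.32, Gnat1 at -0.09 and Gngt1 at -0.10.

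Levels of the cascade differed more between rods of low and high mitochondrial share than between genotypes. Rods of both libraries were ranked by the share of their UMIs from mitochondrial genes and split into 5 bins of equal size, with the lower 4 ending at 1.06%, 2.07%, 3.58% and 5.92%. The summed cascade genes were higher in each successive bin, from 32651 CPM in the lowest to 50204 CPM in the highest bin of wild-type rods, and from 31214 to 48800 CPM in db/db rods. Of the 9 genes, 6 were called higher in the highest than in the lowest bin in each library, against 15.7% of measured genes in wild-type and 15.6% in db/db rods, where 60.6% and 62.3% were called lower. The median log2 ratio over the 9 genes was 0.53 and 0.45, beside -0.40 and -0.43 over all measured genes. Levels here are per nuclear-encoded UMIs, so the mitochondrial share itself is not in the denominator. Most genes were lower in the highest bin, so a gene at a constant level per 1000000 UMIs stands above the typical gene.

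Gngt1 and Gnat1 of transducin showed the largest contrasts of the 9 genes. Gngt1 was at 4438 CPM in the lowest and 9909 CPM in the highest bin of wild-type rods, and at 3733 and 9453 CPM in db/db rods, log2 ratios of 1.16 (1.13 to 1.18) and 1.34 (1.32 to 1.36). Gnat1 was at 3832 and 7785 CPM in wild-type rods and at 3561 and 7632 CPM in db/db rods, log2 ratios of 1.02 and 1.10. Gnb1 was at 4161 and 7432 CPM and at 4209 and 7582 CPM, log2 ratios of 0.84 and 0.85. All 3 subunits of the heterotrimer were thus higher in each library at high mitochondrial share.

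Phosphodiesterase split again by subunit. Pde6g was at 4701 CPM in the lowest and 8557 CPM in the highest bin of wild-type rods, and at 3830 and 7068 CPM in db/db rods, log2 ratios of 0.86 and 0.88. Pde6a was at 1517 and 1903 CPM and at 1634 and 2069 CPM, log2 ratios of 0.33 and 0.34. Pde6b was at 2030 and 2162 CPM and at 2082 and 2283 CPM, with log2 ratios of 0.09 (0.05 to 0.14) and 0.13 (0.10 to 0.17), both short of a call. The inhibitory subunit tracked transducin more closely than the catalytic subunits it binds. When all UMIs stood in the denominator, Pde6b in wild-type rods was at -0.02.

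Arrestin and the modulatory channel subunit were nearly flat. Sag was at 8702 CPM in the lowest and 8083 CPM in the highest bin of wild-type rods and at 8792 and 8380 CPM in db/db rods, log2 ratios of -0.11 (-0.13 to -0.08) and -0.07 (-0.09 to -0.05). Cngb1 was at 1146 and 1303 CPM and at 1144 and 1286 CPM, log2 ratios of 0.19 and 0.17. Cnga1 stood between, with 2124 and 3068 CPM in wild-type and 2229 and 3048 CPM in db/db rods, log2 ratios of 0.53 and 0.45. Sag was the only member with a lower level per 1000000 UMIs at high mitochondrial share in both libraries.

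**Figure D3:**
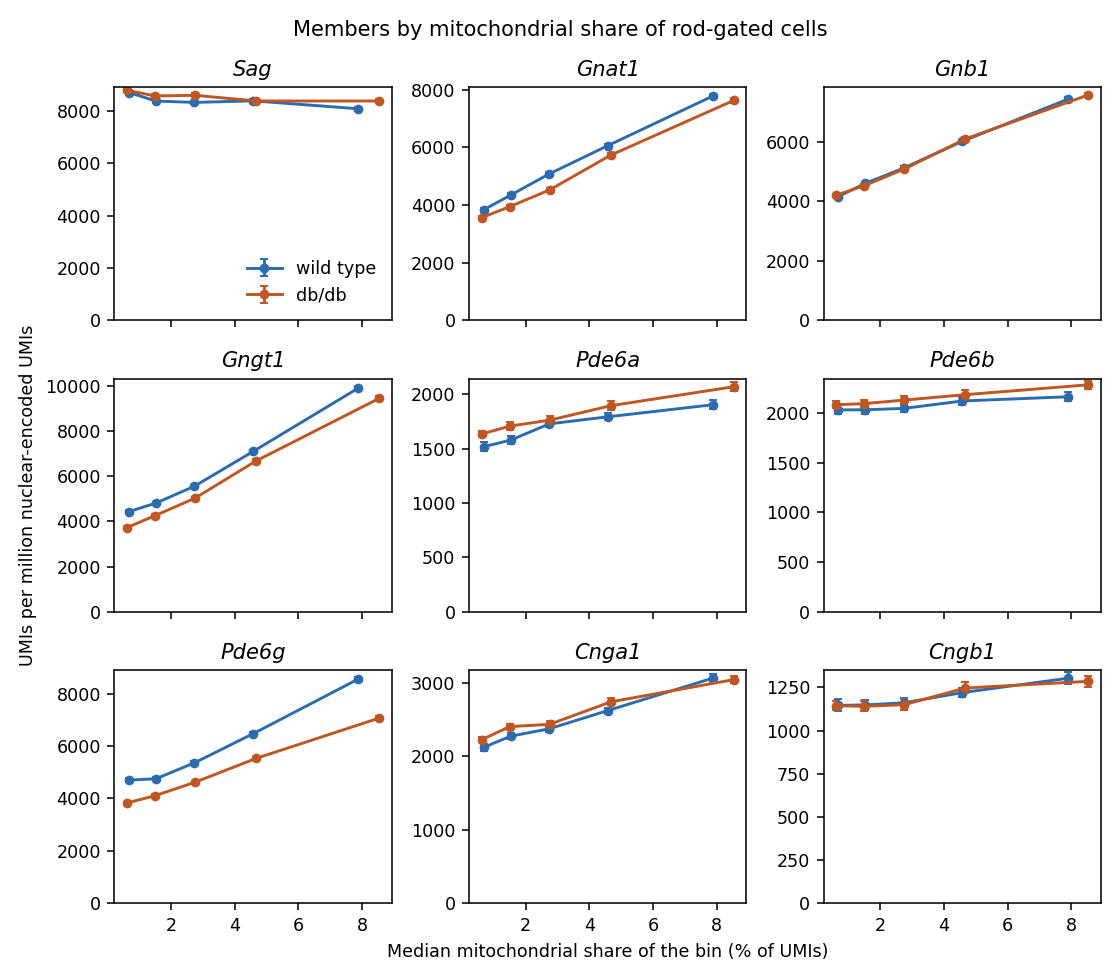
Level of each cascade gene (y axes from 0, UMIs per 1000000 nuclear-encoded UMIs) in bins of rod-gated cells, placed at the median mitochondrial share of the bin (x axis, percent of UMIs), with 1 line per library and 95% counting intervals. Gngt1, Gnat1, Gnb1 and Pde6g are higher toward the right in both libraries while Sag, Pde6b and Cngb1 stay nearly level; the db/db line of Pde6g runs below the wild-type line in every bin.

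Several other measures moved with the mitochondrial share. Malat1, a nuclear long noncoding RNA, was at 79465 CPM in the lowest and 32055 CPM in the highest bin of wild-type rods, and at 78652 and 33416 CPM in db/db rods. The median depth of a rod was 1758 UMIs in the lowest and 2535 in the highest wild-type bin, and 1770 and 2219 UMIs in db/db rods. The rod markers used for gating had medians of 333 and 380 UMIs per 10000 in the lowest and highest wild-type bins, and of 336 and 377 in the db/db ones. The cone counterparts had a median log2 ratio of 0.61 in wild-type and 1.04 in db/db rods over the 7 measured. By transcript length, the shortest bin of genes had medians of -0.04 and 0.00, and the other bins -0.37 to -0.49, so Gngt1 and Pde6g, but not Sag, lay well above genes of like length. The part of these measures in the contrasts was not tested. The genotypes also differed in makeup, since 15.4% of wild-type and 23.9% of db/db rods fell in the lowest bin.

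Set within bins, the genotype ratios of the 3 lower genes differed in course. Pde6g had log2 ratios of db/db to wild type of -0.30, -0.21, -0.21, -0.23 and -0.28 from the lowest to the highest bin. Gngt1 went from -0.25 in the lowest bin through -0.18, -0.14 and -0.09 to -0.07 in the highest. Gnat1 was at -0.11, -0.14, -0.17, -0.08 and -0.03. Pde6g was therefore lower in db/db rods at every mitochondrial share by similar amounts, while the ratio of Gngt1 came closer to 0 as the share rose. With the bins weighted equally, Pde6g was at -0.25 and just short of a call. Pde6a was above 0 in all 5 bins, between 0.03 and 0.12, and Gnb1 lay between -0.03 and 0.03.

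The pathway lists showed the same mixture across bins. Over all measured genes, 15.7% were called higher and 60.6% lower in wild-type rods, and 15.6% and 62.3% in db/db rods. Of the 12 recovery and feedback genes, 7 were called higher and 1 lower in wild-type rods, and 5 and 1 in db/db rods, with medians of 0.34 and 0.20. Among these 12, Rcvrn, Pdc and Guca1b were also rod markers of the gate. Rcvrn was at 0.98 and 1.03, Slc24a1 (the sodium, calcium and potassium exchanger of the rod outer segment) at 0.86 and 0.81, and Pdc (phosducin, which binds the transducin beta and gamma subunits) at 0.61 and 0.70. Of the 8 chaperones and carriers, 4 were called higher and 3 lower in each library, among them Unc119 (a carrier of the transducin alpha subunit) at 0.49 and 0.57, and Fam161a (a protein of the photoreceptor cilium) at -0.63 and -0.66. Among other G protein subunits Gnas was at 1.03 and 1.04, and Gnaq at -0.64 and -0.51.

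Single rods varied in a similar way. Over the thinned rods, 6681 wild-type and 8273 db/db cells of 1 library each, the highest Pearson correlation among the 36 pairs of members was between Gngt1 and Pde6g, at 0.49 in wild-type and 0.44 in db/db cells. Gnat1 with Gngt1 followed at 0.41 and 0.43. Gnat1 with Pde6g was next in wild-type cells at 0.39, while in db/db cells it was at 0.33, below Gnb1 with Gngt1 at 0.36 and Gnat1 with Gnb1 at 0.34. The catalytic subunits Pde6a and Pde6b were nearly uncorrelated with each other, at 0.01 and 0.03, and Sag with Gnat1 was at -0.03 and -0.02. These are descriptions over cells that share a library, and counts of a few UMIs per cell limit every such value. The variance of thinned counts over their mean was 2.46 and 2.50 for Gngt1 in wild-type and db/db rods and 1.81 and 1.87 for Gnat1. It was 1.60 and 1.66 for Sag, and 1.06 in both libraries for Cngb1, which is close to the value of 1 that counting alone gives. These genes differ in mean count. Genes of like mean had medians of 1.87 and 1.59 for Gngt1 and 1.85 and 1.67 for Gnat1. For Sag those medians were 1.89 and 2.04, and for Cngb1 1.17 and 1.16. The medians rest on 68 and 66 genes for Cngb1 but on only 3 and 2 for Sag. For Gngt1 they rest on 6 and 5 genes, and for Gnat1 on 7 and 8.

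The genes whose levels over the 10 combinations of bin and library were most like the summed members were Rps26 (a ribosomal protein), Atp5b and Uqcrq (subunits of the respiratory chain and its ATP synthase), Mfge8 and Prcd (a protein of rod discs). Their Pearson correlations of log2 levels were 0.998 to 0.999 over 8710 genes searched, and Gngt1 was at 0.997 and Sag at -0.80 against the sum that contains them. The 10 points are 5 bins of 2 libraries and share depth and composition.

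Outside rods every member was found in each of the 7 classes described, at a level below that of rods. Levels are given as a percent of the level in rod-gated cells of the same library, which puts each gene on its own scale. The gates of the other classes capped the rod markers, so lower levels of rod genes than in rods partly follow from the choice of cells. All 9 genes were called lower than in rods in cone-gated cells, against 39.3% of measured genes for wild type and 41.7% for db/db. The same held in bipolar-gated cells, against 38% and 39.4%, and in Muller glia-gated cells, against 45.9% and 46.6%. The median percent over the 9 genes was, for wild type first, 23.3 and 21.5 in cones, 18.6 and 18.1 in bipolar cells and 21.5 and 21.3 in Muller glia. It was 21.2 and 18.6 in amacrine-gated cells (43 and 12 cells), 31.7 and 31.5 in cells gated as retinal pigment epithelium (27 and 6 cells), 11.9 and 12.9 in microglia or macrophages (48 and 50 cells) and 7.50 and 6.88 in erythroid cells (23 and 39 cells). These levels depend on the gate. With the stricter gate the median over the 6 classes other than cones was 11.8 and 8.40, and without cells above the median rod-marker share of their class it was 9.31 and 8.17, compared with 19.9 and 18.4.

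In Muller glia, the radial glia of the retina, the 9 genes kept nearly the proportions they had in rods. Their percents ran from 18.8 (Pde6g) to 24.4 (Pde6b) in the 233 wild-type cells and from 19.0 (Cnga1) to 25.4 (Gnat1) in the 135 db/db cells. The highest was thus 1.29 and 1.34 times the lowest. That ratio was the smallest of the 7 classes in each library. Muller glia had medians of 83.8 and 82.2 rod-marker UMIs per 10000, whose part in these levels was not tested.

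In cones 3 genes stood apart from the rest. Sag was at 63.6% of the rod level in the 383 wild-type cones (62.3 to 65.0%) and at 59.5% in the 355 db/db cones (58.2 to 60.9%). Pde6g was at 64.3% (62.7 to 66.0%) and 67.6% (65.7 to 69.5%). Gngt1 was at 56.4% (55.0 to 57.9%) and 58.8% (57.1 to 60.5%). The other 6 genes lay between 20.2% (Pde6a) and 26.5% (Gnat1) in wild-type and between 18.2% (Pde6a) and 23.2% (Gnat1) in db/db cones, with no overlap with the 3. The cone gate allowed more rod markers than the other gates, and cones had medians of 136 and 133 rod-marker UMIs per 10000, beside 343 and 345 in rods and 45.1 and 32.7 in bipolar cells. Mouse cones are known to contain the arrestin encoded by Sag beside their own arrestin.

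The 3 genes stood out in single cones too. After thinning to 1000 UMIs, Sag was present in 366 of 370 wild-type cones (98.9%), and Gngt1 and Pde6g in 348 each (94.1%), with Gnat1 in 62.2%. In db/db cones the shares were 97.9%, 89.7% and 91.8%, with Gnat1 at 53.5%. For comparison, thinned bipolar cells had Sag in 58.7% and 50.2% of cells and Pde6g in 47.3% and 34.4%. Cones had median depths of 4490 and 4701 UMIs before thinning and bipolar cells 3350 and 3320. Without thinning, Sag was seen in 100% of cones and 90.3% and 83.4% of bipolar cells.

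The stricter gate raised the ratio of these 3 genes to the median member in cones. Relative to the median member, Sag was at 2.74 in wild-type and 2.76 in db/db cones, and at 8.51 and 7.94 with the stricter gate. Pde6g was at 2.77 and 3.14, and at 5.45 and 6.47 with that gate. Gngt1 was at 2.43 and 2.73, and at 4.55 and 4.48. With the stricter gate the median member was at 7.59% of the rod level in wild-type and 7.63% in db/db cones, compared with 23.3% and 21.5% in the main treatment. The larger ratios go with a lower median member, so they do not show higher levels of the 3 genes themselves.

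Cones with more S opsin (Opn1sw) than M opsin (Opn1mw) UMIs had higher levels of all 9 genes than those with more Opn1mw, in both libraries, a split added after the values were seen. Sag was at 68.9% of the rod level in the 243 wild-type cones led by Opn1sw and at 53.5% in the 138 led by Opn1mw, and at 65.7% and 50.3% in the 213 and 142 db/db cones. Pde6g was at 67.5% and 58.2% in wild-type and at 68.7% and 65.9% in db/db cones. Cngb1 was at 25.2% and 13.9% and at 21.7% and 13.6%. Gnat1 was at 29.3% and 21.2% and at 25.9% and 19.1%, and Pde6b at 24.5% and 14.6% and at 24.4% and 15.3%, so the genes at the low level in cones were also higher in the cones led by Opn1sw.

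Bipolar cells, the interneurons that receive photoreceptor signals, had their highest percents for Gngt1 and Cngb1. Gngt1 was at 29.6% of the rod level in the 401 wild-type cells (28.4 to 30.8%) and at 31.7% in the 302 db/db cells (30.2 to 33.3%). Cngb1 was at 25.9% (23.4 to 28.6%) and 29.7% (26.6 to 33.0%). The other 7 genes lay between 15.1% and 23.0% in wild-type and between 14.7% and 21.6% in db/db cells. In wild-type cells the interval of Cngb1 overlapped that of Gnat1 (21.8 to 24.1%). The level of Gngt1 over the median member was 1.59 in wild-type and 1.75 in db/db cells, and with the stricter gate 1.14 and 1.74. Cngb1 was at 1.39 and 1.64 by the same measure, and at 1.58 and 2.54 with the stricter gate.

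Among ON bipolar cells the 2 genes were higher in cells without markers of rod bipolar cells than in cells with them, a split added after the values were seen. ON cells had at least 2 UMIs of Trpm1, Grm6 and Isl1 and none of Grik1 and Vsx1. Among them, cells with no UMI of the rod bipolar markers Prkca and Car8 had Gngt1 at 37.0% of the rod level in 95 wild-type cells and at 48.5% in 85 db/db cells. Those with such a UMI were at 30.4% in 138 and at 28.5% in 99 cells. Cngb1 was at 40.1% and 37.8% in cells without those markers and at 25.4% and 29.4% in cells with them. In db/db cells its intervals overlapped, at 31.0 to 45.8% without and 24.5 to 34.9% with the markers. Cells without the markers were shallower, with medians of 3117 against 3690 UMIs in wild-type and 3064 against 3975 in db/db cells. The part of depth was not tested. The few cells with at least 1 UMI of Grik1 and Vsx1 and none of the 3 ON markers had Gngt1 at 39.0% (31.6 to 47.7%) in 23 wild-type and at 28.5% (22.5 to 35.7%) in 19 db/db cells, and Cngb1 at 17.2% and 14.2%. Between ON cells without and with rod bipolar markers Sag did not follow one course, with 18.7% against 16.1% in wild-type and 13.4% against 19.8% in db/db cells.

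A few bipolar cells held much of the Gngt1 signal. In thinned cells the median was 1 UMI in each library, and 35 of 368 wild-type and 24 of 285 db/db cells had 5 or more. Those cells, 9.51% and 8.42% of the class, held 35.8% and 31.0% of its Gngt1 UMIs. Since the cut was on Gngt1 itself, a share of its UMIs above the share of cells follows from the choice. The share that counting alone would give was not computed. Their mean Sag count was 1.46 and 1.5 UMIs, beside 1.18 and 1.01 in the other bipolar cells, and an ON marker was present in 71.4% and 70.8% of them, beside 84.4% and 82.4%.

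In the wild-type library Gnb1 had the highest percent of the 9 genes in amacrine cells, in microglia or macrophages and in erythroid cells. Its interval overlapped that of Gnat1 in each of these classes, so the counts do not settle which of them was higher. In db/db cells the highest member differed between classes, with Cnga1 in amacrine cells, Gnat1 in microglia or macrophages, Cngb1 in retinal pigment epithelium and Gngt1 in erythroid cells. The interval of each overlapped those of other members. In wild-type amacrine cells, inhibitory interneurons, Gnb1 was at 26.8% (23.9 to 29.9%), with Sag at 14.9% (13.2 to 16.8%). In wild-type microglia or macrophages it was at 18.8% (16.1 to 21.9%), with Sag at 11.9% (10.1 to 13.9%). In db/db microglia or macrophages Gnat1 was at 19.4% (16.9 to 22.2%), beside 18.1% for Gnb1 and 11.1% for Sag. The 12 db/db amacrine cells and 6 db/db cells of the retinal pigment epithelium gave intervals too wide to order the members, such as 21.9 to 99.8% for Cngb1 in the latter.

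Erythroid cells had the lowest percents in the main treatment of the data. They ran from 5.05 (Gngt1) to 9.72 (Gnb1) in wild-type cells and from 5.05 (Cngb1) to 9.75 (Gngt1) in db/db cells. All measured genes had a median of 11.5% and 10.1% of the rod level in these cells, against 98.7% and 98.9% of genes called lower, so the cascade genes were near other genes there. That all-gene median was 100% and 99.4% in bipolar cells and 89.5% and 89.1% in Muller glia. Low percents in erythroid cells were thus shared by most measured genes. The total used for scaling includes the hemoglobin genes of the erythroid gate, whose part was not tested. Gngt1 moved from 5.05% (3.47 to 7.09%) to 9.75% (8.35 to 11.3%) between the libraries, on 33 and 174 UMIs. Over the alternative treatments the median percent in erythroid cells ranged from 4.04 to 21.1 in wild-type and from 1.96 to 19.3 in db/db cells.

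**Figure D4:**
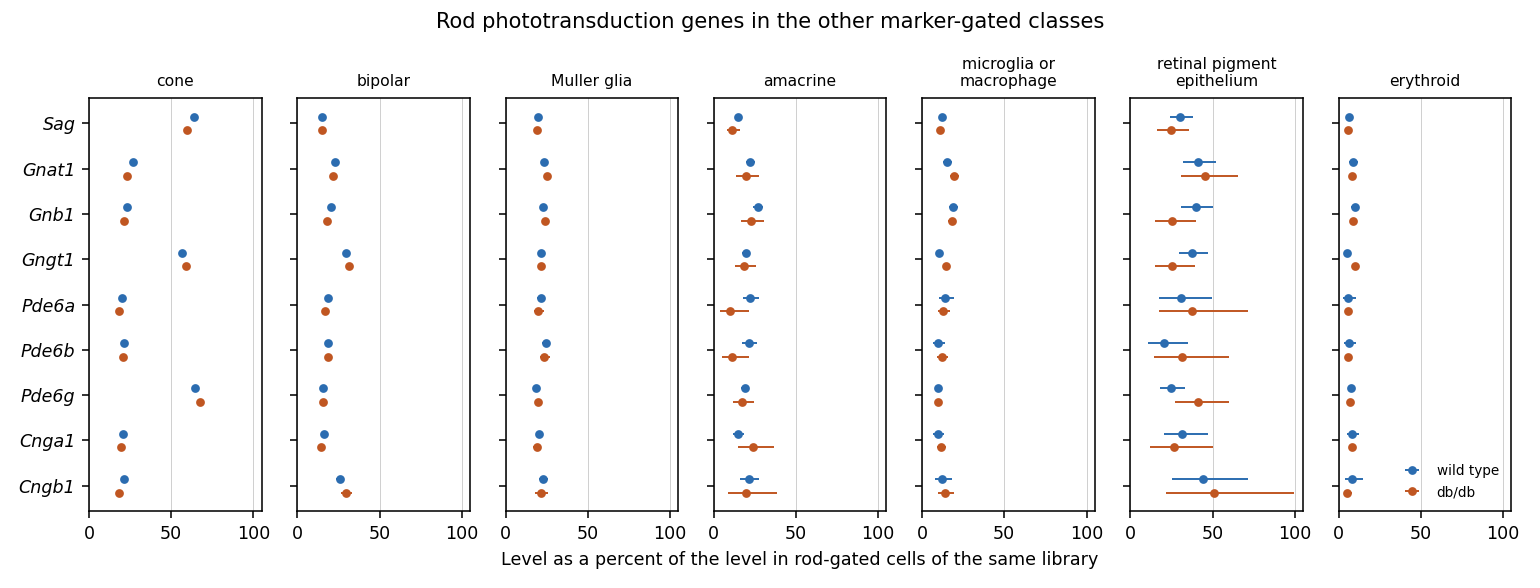
Level of each cascade gene in 7 marker-gated classes as a percent of its level in rod-gated cells of the same library (x axes), with 1 point per library and 95% counting intervals. In cones Sag, Gngt1 and Pde6g lie between 56.4% and 67.6% and the other 6 below 27%, in bipolar cells Gngt1 and Cngb1 lie to the right, and in Muller glia the points line up.

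The genotype ratios outside rods partly resembled those in rods. In cones 1 of the 9 genes was called, Gnat1 at -0.33 (-0.42 to -0.24), against a background of 14.7% called lower and 30.6% in either direction, and Pde6g was at -0.20 (-0.25 to -0.14). In bipolar cells 1 was called, Pde6g at -0.30 (-0.43 to -0.17), against 18.7% lower and 37.8% in either direction. In Muller glia none was called, against 43.9% in either direction, and Pde6g was at -0.21 (-0.37 to -0.05) and Gngt1 at -0.18 (-0.32 to -0.04). In microglia or macrophages 3 were called higher and 1 lower, against 24.1% and 30.4%, and the interval of Gngt1, 0.01 to 0.72 around 0.36, was the only one without 0. Pde6g was lower in the db/db library in rods and in all 5 other classes compared, with intervals that included 0 in microglia or macrophages and in erythroid cells. Each class shares its library with the rods, so these ratios are not independent of the ratios in rods.

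Over the 16 combinations of 8 classes and 2 libraries, genes most like the summed members included Pdc, Rom1 (a disc rim protein), Gucy2e (a photoreceptor guanylate cyclase) and Adipor1. Their Pearson correlations of log2 levels ran from 0.974 to 0.982 over 9553 genes searched. Pdc and Rom1 were also among the rod markers of the gate. Against the same sum, which contains them, the members ran from 0.898 for Cngb1 to 0.978 for Sag.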

How the data were processed

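Single-cell RNA was measured in 2 retina libraries, wild type and db/db. The authors deposited raw UMI counts per gene and barcode, made with cellranger 6.0.1 per the file headers, and mm10 is named in the submitters' processing notes. Which annotation release was used, how cells were called and whether strand was used in counting is not given in the sources used here. Barcodes with at least 200 genes and at most 20% mitochondrial UMIs were kept, which removed 1 and 7 barcodes for few genes and 77 and 113 for high mitochondrial share. No doublet caller was run. Instead, 1 alternative dropped the deepest 8% of cells of each class and library.

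Cells were gated on marker UMIs per 10000. The minimum was 200 for rods, cones and erythroid cells, 100 for Muller glia and retinal pigment epithelium, 80 for microglia or macrophages, 60 for bipolar and 30 for amacrine cells, with at least 3 marker UMIs. Markers of other classes had to stay under 0.5 times their own minimum, except between classes that share markers. Rod markers could reach 200 in other classes, and 250 in cones. Classes with at least 30 cells over both libraries were described.

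UMIs were summed per class and library and scaled to 1000000 nuclear-encoded UMIs (CPM). Sums have exact Poisson, shares Clopper-Pearson and ratios conditional binomial intervals at 95%, with Python 3.11.15, numpy 2.4.6 and scipy 1.17.1. They cover counting error only. With 1 library per genotype there was no test, and all differences between genotypes lack a replicate check. Genes with at least 50 UMIs over the groups compared counted as measured, and a class was set against rods over genes with at least 10 observed or expected UMIs. The ratio code was tested on simulated data for the rod comparison, where 95.1% of 12052 intervals held the true value. The simulated counts were Poisson, which the intervals assume, so this checks the code and not the coverage in the real counts.

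The members, pathway lists, markers and thresholds were chosen with earlier results of these data known. All 9 members are named, and up to 4 genes of each list, those of largest size. Some genes that these rules cover are not reported here. In the sensitivity alternatives 1 choice was changed at a time.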

Additional observations from a re-analysis of the deposited data

How the results depend on the processing

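No paired analysis was possible because each genotype has 1 library. No called value changed sign. Of the main values under each alternative, 38 moved by more than the counting interval or changed a count, and 40 did not. In rods the number of cascade genes called between genotypes, 1, was 0 with cells thinned to 1000 UMIs, without the deepest 8% of cells, with cells weighted equally and with the 5 mitochondrial bins weighted equally. The median log2 ratio over the 9 genes, -0.00554, was 0.0256 thinned, 0.0173 without the deepest cells, 0.0408 with equal weights, -0.0367 with the stricter gate and -0.0290 scaled to the median ratio of measured genes, all close to 0. Pde6g stayed between -0.32 and -0.16. The share of all genes called, 20.6%, was 31.1% with a minimum of 10 UMIs and 9.76% with 500.

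Across mitochondrial bins the median log2 ratio, 0.53 in wild-type and 0.45 in db/db rods, was 0.48 and 0.40 with at most 10% mitochondrial UMIs, 0.49 in wild-type rods thinned, 0.49 and 0.40 without the deepest cells, 0.43 and 0.37 with equal weights, 0.41 and 0.32 with all UMIs in the denominator and 0.60 and 0.50 with 10 bins. The number called stayed between 5 and 7.

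In the classes other than cones the median percent of the rod level, 19.9 and 18.4, was 19.4 and 19.2 with at most 10% mitochondrial UMIs, 19.9 and 18.5 without that limit, 20.7 and 18.7 with at least 500 genes and 18.6 and 16.5 thinned. It was 18.5 and 17.1 without the deepest cells, 22.4 and 19.8 with equal weights, 19.7 and 18.0 with all UMIs in the denominator, 11.8 and 8.40 with the stricter gate and 9.31 and 8.17 without cells of high rod-marker share. The causes were not tested. One library per genotype, undetected doublets and free RNA limit every comparison, and small classes give wide intervals.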
